A study of Mus musculus with 20 samples.

Results

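Tumour necrosis factor, the itaconate-producing enzyme Acod1 and 8 chemokines (Cxcl2, Cxcl10, Ccl2, Ccl3, Ccl4, Ccl5, Ccl7 and Ccl9) are described here in a mouse macrophage line and in mouse liver. The 10 genes were taken by symbol, and each was found among the 24972 entries of the macrophage table and of the liver table. RNA sequencing was carried out on 20 libraries, 6 from RAW264.7 cells and 14 from total liver. RAW264.7 is a mouse monocyte and macrophage-like line. It was treated for 6 hours with a complex of HMGB1, in the form the labels write as [O] HMGB1, and IL1β (n = 3), or with BSA, a control protein (n = 3). Wild-type (WT) livers came from mice labelled male that had been fed an alcohol diet (n = 4) or a control diet (n = 4) for 6 weeks. The other 6 liver libraries are labelled RageΔMye, alcohol (n = 3) and control diet (n = 3), and enter neither comparison. The labels do not say that replicates came from separate cultures or animals, so the p-values measure the spread between these libraries, which may be technical.

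TNF is a cytokine that macrophages release early after activation, and it acts through a pair of receptors on many cell types. ACOD1, also called IRG1, is the mitochondrial enzyme that makes itaconate from the citrate cycle intermediate cis-aconitate in activated macrophages. Chemokines are small secreted proteins that attract leukocytes through receptors on their surface. In the injured liver, Kupffer cells, recruited monocytes and other cells produce several of them.

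All values are in TPM, a transcript level corrected for length and scaled to the same total in each library. The libraries differed in how low levels were resolved and in where the signal lay. Of the summed TPM, 57.3% to 59.9% in RAW264.7 cells, and 15.4% to 18.3% in WT liver, belonged to genes with exons that overlap those of the other strand, so levels and ranks in RAW264.7 cells are shares of totals made largely of such genes. The value above 0 that recurred most often in a library lay between 9.85 and 13.4 TPM in RAW264.7 cells, and between 0.0576 and 0.0835 TPM in WT liver. The RAW264.7 libraries listed 8630 to 9231 genes above 0, and the WT livers 15113 to 15599. In a RAW264.7 library 0 to 2 of 14 housekeeping genes had a value of 0, and in a WT liver 0, so a value of 0 in the RAW264.7 table does not show that a gene was off. Between replicates, the correlation across genes was 0.810 to 0.833 in RAW264.7 cells and 0.969 to 0.991 in WT liver (Pearson, log2(TPM + 1), genes not being independent replicates). The labelled cell type was checked against 10 macrophage markers: 8 were tested, with summed levels of 1320 to 1653 TPM with the complex and 1221 to 1670 TPM with BSA, and Fcgr1 and Mrc1 were listed at 0 in all 6 libraries. Markers of hepatocytes (6 genes) and of T and NK cells (10 genes) were listed at 0 in all RAW264.7 libraries. Other lists were not wholly at 0. Endothelial markers summed to 4.19 to 8.92 TPM with the complex and 3.88 to 6.84 TPM with BSA. Neutrophil markers summed to 0 to 23.0 TPM with the complex and 0 to 22.2 TPM with BSA. B cell markers reached 9.85 TPM with BSA. As a 0 does not show that a gene was off, these zeros are a weak check of the cell type.

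In the mouse genome (mm10), 6 of the 10 genes lie on chromosome 11. Ccl2 (82035571 to 82037453, plus strand) and Ccl7 (82045712 to 82047525, plus strand) lie close together. Ccl5 (83525778 to 83530518, minus strand), Ccl9 (83572919 to 83578636, minus strand), Ccl3 (83647844 to 83649355, minus strand) and Ccl4 (83662584 to 83664683, plus strand) lie further along chromosome 11. Cxcl2 (90903871 to 90905938, plus strand) and Cxcl10 (92346638 to 92348889, minus strand) are on chromosome 5. Tnf is on chromosome 17 (35199381 to 35202007, minus strand), and Acod1 on chromosome 14 (103046977 to 103056573, plus strand). Among the 10, Cxcl10 alone shares exonic sequence with a gene of the other strand, Art3. The strand setting of the authors' counting is not given in the sources used here.

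Promoter sequence just upstream of the start site is shown for the 3 genes that rose in the macrophage line and for Cxcl10, so that their letters can be compared. Each is the 200-base stretch from 250 to 51 bases before the RefSeq start (GRCm38.p6), written 5′ to 3′ on the gene's own strand. Capitals mark matches on either strand to the NF-kB consensus or to the interferon-stimulated response element core, which was searched as GAAA, any 2 bases and GAAA.
Tnf (chr17:35202058-35202257, minus strand): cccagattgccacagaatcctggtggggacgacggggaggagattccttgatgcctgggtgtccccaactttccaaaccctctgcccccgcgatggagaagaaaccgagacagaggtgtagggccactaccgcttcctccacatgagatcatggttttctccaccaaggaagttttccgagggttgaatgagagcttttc
Acod1 (chr14:103046762-103046961, plus strand): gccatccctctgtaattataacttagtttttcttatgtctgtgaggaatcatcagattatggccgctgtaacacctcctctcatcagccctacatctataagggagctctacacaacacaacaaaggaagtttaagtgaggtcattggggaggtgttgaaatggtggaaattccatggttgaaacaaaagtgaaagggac
Cxcl2 (chr5:90903649-90903848, plus strand): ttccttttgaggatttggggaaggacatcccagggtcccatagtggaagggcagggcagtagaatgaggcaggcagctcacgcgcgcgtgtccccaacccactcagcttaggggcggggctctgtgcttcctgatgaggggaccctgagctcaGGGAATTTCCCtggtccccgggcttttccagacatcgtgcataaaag
Cxcl10 (chr5:92348940-92349139, minus strand): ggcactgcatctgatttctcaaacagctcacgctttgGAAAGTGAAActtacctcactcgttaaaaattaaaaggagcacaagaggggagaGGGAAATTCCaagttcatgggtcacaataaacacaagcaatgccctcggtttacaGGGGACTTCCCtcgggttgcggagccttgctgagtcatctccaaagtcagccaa

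Of the 10 genes, 6 had an entry in the RefSeq promoter table (Tnf, Acod1, Cxcl2, Cxcl10, Ccl3 and Ccl9). The NF-kB consensus was matched in 2 of these 6, against 5.71% of all 32851 promoters of that window. Cxcl2 held 2 overlapping matches at 97 to 88 and 96 to 87 bases before the start. Cxcl10 held matches at 159 to 150, 104 to 95 and 103 to 94 bases before the start, the last 2 overlapping. Its element core lay at 213 to 204 bases, and that core was matched in 2.40% of all promoters. The AP-1 letters TGANTCA were found in Cxcl10 at 74 to 68 bases (5.57% of all promoters), and CCAAT in Acod1 at 107 to 103 bases (28.4%). These are matches of letters, not measured binding sites.

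In RAW264.7 cells, Tnf, Acod1 and Cxcl2 rose with the HMGB1 and IL1β complex. Their mean levels were 6.12, 8.71 and 9.78 times those of the cells given BSA. The other 7 genes also had higher means with the complex, but none of them passed the test (limma, Benjamini-Hochberg adjusted p under 0.05 over 10559 genes). Over all 10559 genes, 43.8% had a log2 difference above 0. The test called 16 genes higher, 0.152% of all tested, and 3 lower, 0.0284%; of the 10 response genes it called 3 higher and 0 lower, and 7 did not pass. When levels were rescaled without genes whose exons overlap the opposite strand, an alternative chosen after seeing the data, 3 genes in all were called higher and 0 lower, and 2 of the 3 were response genes. Cxcl10 and Ccl5 entered the test through the complex libraries alone, so their direction was set by the filter of a mean of at least 1 TPM in either group.

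Tnf encodes the cytokine itself. It stood at 2455, 2204 and 2215 TPM with the complex, against 270.2, 415 and 437 TPM with BSA. All complex libraries lay far above all BSA libraries. The log2 change was 2.64 (SE 0.187, 95% interval 2.20 to 3.08, adjusted p = 0.00364). By mean level, Tnf ranked 52nd of the 24972 entries with the complex and 384th with BSA. It took 0.220% to 0.245% of the library total with the complex and 0.0270% to 0.0437% with BSA. Without complex replicates 1, 2 and 3 the log2 change was 2.59, 2.67 and 2.66. The limma adjusted p was then 0.0672, 0.106 and 0.0639, so the call was lost, and 3, 2 and 5 genes in all were called. Without any 1 BSA library the adjusted p of Tnf was 0.00494 to 0.0203.

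Acod1, the itaconate enzyme, stood at 228, 238 and 242 TPM with the complex, against 32.4, 33.0 and 15.9 TPM with BSA. The complex libraries were close to each other and well above the BSA libraries. With BSA, Acod1 stood at 3.294, 2.973 and 1.189 times the library's most frequent value above 0. These are small multiples, so the size of its change is uncertain. The log2 change was 3.15 (SE 0.307, 95% interval 2.42 to 3.87, adjusted p = 0.0151). That call was kept without BSA replicate 3 (adjusted p = 0.0149). It was lost without BSA replicate 1 (0.0788), BSA replicate 2 (0.0526) and complex replicates 1, 2 and 3 (0.156, 0.132 and 0.122).

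Cxcl2, a chemokine that attracts neutrophils through Cxcr2, stood at 90.0, 77.4 and 95.7 TPM with the complex, against 5.92, 13.3 and 7.73 TPM with BSA. The groups did not overlap, and the lowest complex library was several times the highest BSA library. With BSA, Cxcl2 stood at only 0.601, 1.193 and 0.579 times the library's most frequent value above 0. Its BSA level was thus near the lowest values resolved, and the size of its change is uncertain. The log2 change was 3.21 (SE 0.349, 95% interval 2.39 to 4.04, adjusted p = 0.0263). The call was kept without BSA replicate 2 (0.0300). It was lost without BSA replicates 1 and 3 (0.102 and 0.142) and complex replicates 1, 2 and 3 (0.174, 0.132 and 0.150). It was also lost when levels were rescaled without genes whose exons overlap the opposite strand (0.0581).

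**Figure D1:**
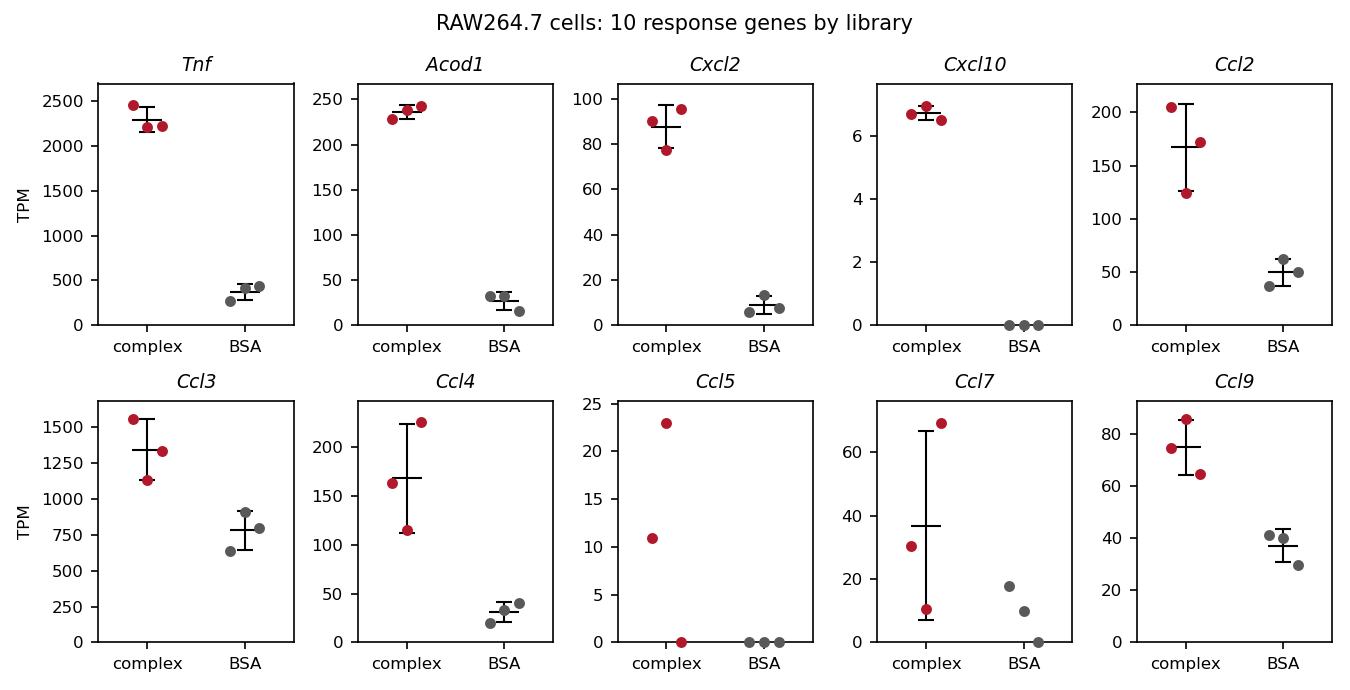
Level of each of the 10 response genes in TPM (vertical axes, each on its own linear scale from 0) in the 3 RAW264.7 libraries given the complex (red, left) and the 3 given BSA (grey, right); bars show mean ± SD where no library of the group is at 0. Tnf lies between 2204 and 2455 TPM with the complex and between 270.2 and 437 TPM with BSA, while Ccl5 and Ccl7 overlap between the groups.

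The other CC chemokines of the macrophage line varied in how far the groups lay apart. Ccl4 (MIP-1β), which attracts monocytes and T cells, stood at 164, 115 and 226 TPM with the complex, against 19.7, 33.3 and 40.1 TPM with BSA. The groups did not overlap, but the spread within the complex was wide, and the log2 difference was 2.40 (SE 0.356, 95% interval 1.57 to 3.24, adjusted p = 0.0578). Ccl2 (MCP-1), the main ligand of Ccr2 on monocytes, stood at 205, 124 and 172 TPM with the complex, against 37.3, 62.7 and 49.9 TPM with BSA. Its groups did not overlap either, with a log2 difference of 1.72 (SE 0.281, 95% interval 1.06 to 2.38, adjusted p = 0.0808).

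Ccl3 (MIP-1α), a ligand of Ccr1, was already abundant with BSA. It stood at 1562, 1137 and 1333 TPM with the complex, against 640.2, 911 and 801 TPM with BSA. All complex libraries were above all BSA libraries, with a log2 difference of 0.78 (SE 0.168, 95% interval 0.38 to 1.18, adjusted p = 0.181). Ccl9 (MIP-1γ), a mouse ligand of Ccr1, stood at 74.3, 85.5 and 64.6 TPM with the complex, against 41.2, 40.0 and 29.8 TPM with BSA. It too did not overlap, and its log2 difference was 1.00 (SE 0.247, 95% interval 0.42 to 1.58, adjusted p = 0.258).

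The remaining members were at low levels, with values of 0 in some libraries. Cxcl10, an interferon-inducible ligand of Cxcr3, stood at 6.70, 6.95 and 6.51 TPM with the complex and was listed at 0 in all 3 BSA libraries (adjusted p = 0.111). Those complex values were 0.614, 0.605 and 0.606 of the library's most frequent value above 0, so their closeness does not show a well-measured level. Art3, whose exon overlaps that of Cxcl10, was listed at 0 in all 6 libraries. Ccl5 (RANTES), which attracts T cells and monocytes, stood at 10.9, 23.0 and 0 TPM with the complex and was listed at 0 in all 3 BSA libraries (adjusted p = 0.586). Ccl7 (MCP-3), a ligand of Ccr2, stood at 30.5, 10.6 and 69.2 TPM with the complex, against 17.7, 9.89 and 0 TPM with BSA (adjusted p = 0.633). Both Ccl5 and Ccl7 overlapped between the groups.

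Of the 8 genes that averaged at least 1 TPM in both groups, which leaves out Cxcl10 and Ccl5, 7 had every complex library above every BSA library. Over all 8538 genes of that kind this held for 5.88%, and the opposite for 8.01%. The same 7 genes were higher at an unadjusted p under 0.05, against 3.51% of the 8538. The median log2 difference was 2.36 over the 8 genes and -0.07 over the 8538. The genes were chosen with earlier results of these data known, so these shares describe the list and do not test it. Summed over the 10 genes, the level was 4826, 4021 and 4424 TPM with the complex, against 1065, 1518 and 1381 TPM with BSA. Most of that sum was Tnf and Ccl3.

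The order of the levels differed between the treatments. With the complex the order was Tnf, Ccl3, Acod1, Ccl4, Ccl2, Cxcl2, Ccl9, Ccl7, Ccl5 and Cxcl10. The ranges of Ccl4 and Ccl2 overlapped, as did those of each neighbouring pair from Cxcl2 down. With BSA, Ccl3 came first, ahead of Tnf, and then Ccl2, Ccl9, Ccl4, Acod1, Ccl7 and Cxcl2, with overlapping ranges between neighbours from Ccl2 down. The ratio of Tnf to Ccl3 within a library was 1.57, 1.94 and 1.66 with the complex, against 0.422, 0.456 and 0.545 with BSA. The ratio of Ccl3 to Ccl4 was 9.53, 9.90 and 5.90 with the complex, against 32.5, 27.3 and 20.0 with BSA. Both ratios separated the groups with no overlap; they are descriptions, with no test.

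The levels of Ccl3, Ccl4 and Ccl5 moved in whole steps. Within a tolerance of 0.01, each was a whole multiple of its library's most frequent value above 0 in all 14 RAW264.7 and WT liver libraries. Values of 0 count as whole multiples by definition. They occurred for Ccl5 in 3 BSA libraries and 1 complex library, for Ccl3 in 3 control livers and for Ccl4 in 1 control liver. Ccl3 stood at 143, 99 and 124 such steps with the complex, against 65, 82 and 60 with BSA. Ccl4 stood at 15, 10 and 21 steps with the complex, against 2, 3 and 3 with BSA. Ccl5 stood at 1, 2 and 0 steps with the complex and at 0 in all BSA libraries. The deposited values give no read counts, and these steps were not turned into reads.

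Genes of the same pathways were set beside the 10 in RAW264.7 cells. Over all 10559 tested genes, 0.152% were called higher and 0.0284% lower, so few calls fall in any list. An unadjusted p under 0.05 was found for 8.31% of them (limma). Of 22 genes for TNF receptors and signalling, 20 were tested and 0 passed (limma; 4 had an unadjusted p under 0.05), with a median log2 difference of 0.50. In that list, Tnfrsf1b, the TNF receptor carried mainly by immune cells, stood at 55.1, 29.9 and 29.9 TPM with the complex, against 5.15, 3.87 and 11.6 TPM with BSA (adjusted p = 0.154). Traf1, an adaptor of TNF receptors, stood at 14.6, 18.5 and 5.79 TPM with the complex, against 2.65, 0 and 0 TPM with BSA (adjusted p = 0.262). Neither passed the test. Of the 20 tested, 2 entered through the complex libraries alone, Traf1 among them, which set their direction.

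Of 27 other chemokines, 22 were listed at 0 in all 6 RAW264.7 libraries. Of the 5 tested, 0 passed (limma), 1 had an unadjusted p under 0.05, and the median log2 difference was -0.20. Through the BSA libraries alone 2 of the 5 entered the test, which set their direction, so the median depends on the filter. Ccl6 averaged 41.3 ± 27.4 TPM with the complex and 11.9 ± 4.84 TPM with BSA (SD, n = 3 each; limma adjusted p = 0.586). Cxcl16 averaged 25.5 ± 2.22 TPM with the complex and 13.3 ± 8.49 TPM with BSA (SD, n = 3 each; limma adjusted p = 0.617), and its exons overlap a gene of the other strand, so its level is uncertain. Of 23 chemokine receptors, 9 were tested and 1 rose, Xcr1, the receptor of Xcl1 known from cross-presenting dendritic cells. Xcr1 stood at 831, 787 and 848 TPM with the complex, against 230.1, 281 and 263 TPM with BSA, with no overlap and a log2 change of 1.67 (SE 0.121, adjusted p = 0.00364). That call was lost without complex replicates 1, 2 and 3 (adjusted p = 0.0672, 0.0836 and 0.0639).

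Of 23 genes around itaconate and the citrate cycle, 22 were tested and 0 passed (limma), with a median log2 difference of -0.08. Of the 22, 3 had an unadjusted p under 0.05, and 1 entered through the BSA libraries alone, which set its direction. Idh3g, a subunit of a citrate cycle dehydrogenase, averaged 91.9 ± 24.6 TPM with the complex and 45.4 ± 19.1 TPM with BSA (SD, n = 3 each; limma adjusted p = 0.465). Idh1, the cytosolic isocitrate dehydrogenase, stood at 0, 3.82 and 3.63 TPM with the complex, against 11.5, 7.38 and 11.0 TPM with BSA (adjusted p = 0.534). Over all tested genes 0.152% were called higher and 0.0284% lower, so 0 calls among these 22 does not set Acod1 apart from them.

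Of 25 macrophage activation genes, 17 were tested, and 15 of them had a log2 difference above 0, beside 43.8% of all tested genes. Of the 17, 1 passed, beside 0.152% of all tested genes called higher: Il1b, the precursor of IL1β. Il1b stood at 25.9, 36.1 and 16.9 TPM with the complex and was listed at 0 in all 3 BSA libraries (adjusted p = 0.0300), so it too entered the test through the complex libraries alone and could be called in 1 direction. Its call was lost without any 1 library (adjusted p = 0.107 to 0.174), with a pseudocount of 0.1 (0.0507) and with no filter (0.0534). Il1bos, which overlaps Il1b on the other strand, was listed at 0 in all 6 libraries. The median log2 difference of that list was 1.47, and 10 of the 17 had an unadjusted p under 0.05; 4 of the 17 had entered through the complex alone. Il6, Il10, Il12b, Csf2, Vcam1 and Marco were listed at 0 in all 6 libraries. Hmgb1, the partner of IL1β in the complex, averaged 102 TPM with the complex and 81.3 TPM with BSA (log2 difference 0.31, adjusted p = 0.755). Ager, which encodes the HMGB1 receptor RAGE, was listed at 0 in all 6.

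In WT liver after 6 weeks of diet, Ccl5 and Ccl9 rose with alcohol, to 2.25 and 1.74 times their mean in the control diet. All 10 genes had the higher mean in the alcohol group, but 5 of them overlapped between the diets and most were at low levels. A mean of 1 TPM in either group was reached by 3 (Cxcl10, Ccl5 and Ccl9), each in both groups, and these were tested. The other 7 were not tested. Over all 9747 tested genes, 45.1% had a log2 difference above 0. The 10 were chosen with earlier results of these data known, so their shared direction is a description. The test called 1296 of 9747 genes higher with alcohol, 13.3%, and 1746 lower, 17.9%; of the 3 tested response genes 2 were called higher. In whole tissue, fewer cells of a type and less RNA per cell cannot be told apart. The livers also differed in sex-linked transcripts although all are labelled male: Xist was 17.8 to 27.3 TPM with alcohol and 0.00165 to 0.135 TPM with the control diet, and 4 Y-linked genes summed to 0 to 0.0161 TPM with alcohol and 11.3 to 16.6 TPM with the control diet. Diet and this difference cannot be told apart in any of the liver results.

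Ccl5 stood at 4.38, 2.55, 2.60 and 4.09 TPM with alcohol, against 1.59, 1.77, 1.36 and 1.33 TPM with the control diet. Every alcohol liver was above every control liver, and alcohol livers 1 and 4 were the highest. The log2 change was 0.79 (SE 0.160, 95% interval 0.43 to 1.14, adjusted p = 0.00516). Leaving out any 1 library gave adjusted p-values of 0.00557 to 0.0176.

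Ccl9 was the most abundant of the 10 in WT liver. It stood at 13.3, 12.8, 13.2 and 18.3 TPM with alcohol, against 7.55, 10.9, 8.34 and 6.31 TPM with the control diet. The groups did not overlap, and alcohol liver 4 stood above the other 3. The log2 change was 0.74 (SE 0.171, 95% interval 0.36 to 1.12, adjusted p = 0.00932), with adjusted p-values of 0.00468 to 0.0279 when any 1 library was left out. In a fit that took its spread from all 14 liver libraries the adjusted p was 0.603 for Ccl9 and 0.0130 for Ccl5.

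Cxcl10 stood at 1.53, 1.37, 0.808 and 3.21 TPM with alcohol, against 2.67, 1.15, 0.700 and 0.477 TPM with the control diet. The groups overlapped through most of their range, and the log2 difference was 0.30 (SE 0.304, 95% interval -0.37 to 0.97, adjusted p = 0.482). Art3, its partner on the opposite strand, was measured beside it at 2.38, 2.11, 1.76 and 2.07 TPM with alcohol, against 0.538, 0.982, 1.52 and 1.35 TPM with the control diet (log2 change 0.58, SE 0.157, adjusted p = 0.0194). Its part in the Cxcl10 values was not tested.

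**Figure D2:**
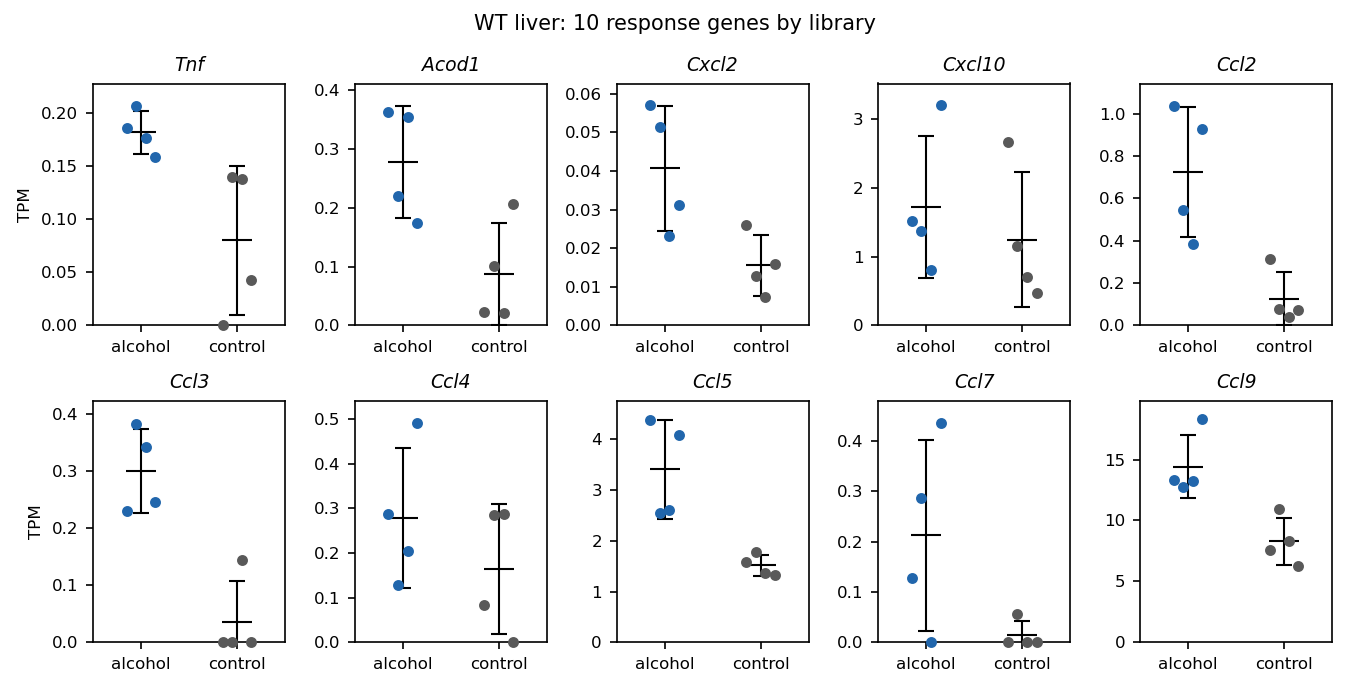
Level of each of the 10 response genes in TPM (vertical axes, each on its own linear scale from 0) in the 4 WT livers of the alcohol diet (blue, left) and the 4 of the control diet (grey, right), with mean ± SD. Ccl5 and Ccl9 separate fully between diets, and Ccl9 reaches 18.3 TPM in alcohol liver 4, while Cxcl10 overlaps.

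The 7 genes below the filter are given by level, since the low cut kept them out of the test. Ccl2 stood at 1.04, 0.547, 0.386 and 0.927 TPM with alcohol, against 0.312, 0.0762, 0.0408 and 0.0743 TPM with the control diet, with no overlap. Ccl3 stood at 0.231, 0.382, 0.342 and 0.245 TPM with alcohol, against 0, 0, 0.144 and 0 TPM with the control diet, again with no overlap. In multiples of the library's most frequent value above 0, Ccl3 was at 4, 6, 5 and 3 with alcohol and at 0, 0, 2 and 0 with the control diet, so each level was a small multiple. Tnf stood at 0.186, 0.207, 0.176 and 0.158 TPM with alcohol, against 0, 0.139, 0.138 and 0.0428 TPM with the control diet, and also did not overlap.

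The other 4 low genes overlapped between the diets. Acod1 stood at 0.364, 0.220, 0.354 and 0.175 TPM with alcohol, against 0.0236, 0.101, 0.0206 and 0.206 TPM with the control diet. Cxcl2 stayed under 0.06 TPM in all 8 livers, at 0.0231 to 0.0572 TPM with alcohol and 0.00725 to 0.0261 TPM with the control diet. Ccl4 stood at 0.127 to 0.491 TPM with alcohol and 0 to 0.287 TPM with the control diet. Ccl7 was 0 to 0.435 TPM with alcohol and 0 to 0.0561 TPM with the control diet, and was above 0 in 3 alcohol livers and 1 control liver.

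With no filter on low values, 17323 genes were tested and 1437, or 8.3%, were called higher. Under that setting 4 of the 10 response genes were called: Ccl5 and Ccl9, and also Ccl2 (log2 change 0.60, SE 0.135, adjusted p = 0.0218) and Ccl3 (0.33, SE 0.0566, adjusted p = 0.0100). Ccl2 lost its call without control livers 2 and 3 (adjusted p = 0.0522 and 0.0601) and without alcohol liver 4 (0.0528), while Ccl3 kept it without any 1 library (0.00592 to 0.0292). The pseudocount of 1 TPM compresses such low values: with a pseudocount of 0.1 the log2 change of Ccl2 was 1.92 and that of Ccl3 was 1.66. Tnf had a log2 difference of 0.13 (SE 0.0437, adjusted p = 0.0729) and Acod1 of 0.23 (adjusted p = 0.0539). The adjusted p was 0.0932 for Cxcl2, 0.130 for Ccl7 and 0.438 for Ccl4.

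In WT liver, 5 of the 10 genes (Tnf, Ccl2, Ccl3, Ccl5 and Ccl9) had every alcohol liver above every control liver. Over all genes tested without a filter this held for 10.6%. The choice of the 10 was made with earlier results of these data known, so this is a description. Summed, the 10 genes stood at 21.5, 18.5, 18.1 and 28.1 TPM with alcohol, against 12.2, 14.5, 11.0 and 8.46 TPM with the control diet, most of it Ccl9. With alcohol the order was Ccl9, Ccl5, Cxcl10, Ccl2, Ccl3, Acod1, Ccl4, Ccl7, Tnf and Cxcl2. The ranges of neighbours overlapped from Ccl5 to Ccl2 and from Ccl3 to Tnf. Tnf and Acod1, which were among the 3 most abundant of the 10 in RAW264.7 cells given the complex, were thus among the low ones in whole liver; the tables were normalized separately, and the levels were not tested across them.

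**Figure D3:**
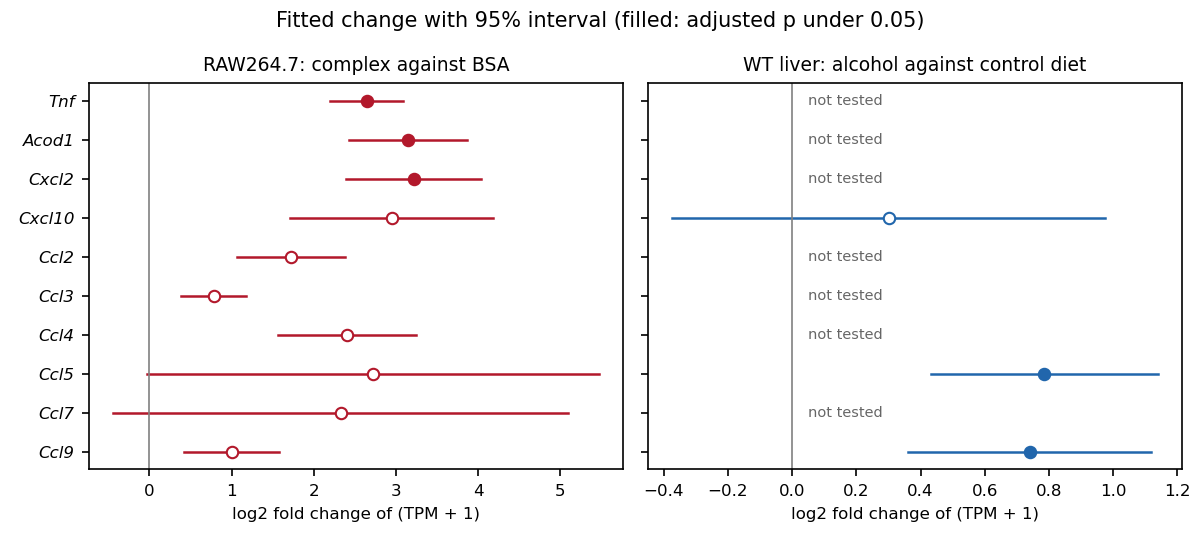
Log2 change of (TPM + 1) with its 95% interval for the 10 response genes, complex against BSA in RAW264.7 cells (left) and alcohol against control diet in WT liver (right), on separate scales. Filled points mark an adjusted p under 0.05: Tnf, Acod1 and Cxcl2 in the cells, Ccl5 and Ccl9 in the liver, where 7 genes below the filter were not tested.

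In the liver, genes of the same pathways were called in both directions. Over all 9747 tested genes, 13.3% were called higher and 17.9% lower, so calls in either direction are frequent in any list. Of 22 genes for TNF receptors and signalling, 18 were tested, 5 rose (Tnfrsf1a, Tnfrsf1b, Ripk1, Casp8 and Rela) and 3 fell (Tradd, Fadd and Ikbkg), with a median log2 difference of 0.12. Tnfrsf1a, the widely expressed TNF receptor, averaged 128 ± 14.1 TPM with alcohol and 62.9 ± 13.4 TPM with the control diet (SD, n = 4 each; log2 change 1.03, limma adjusted p = 0.00111). Casp8, the initiator caspase of that receptor, averaged 37.3 ± 6.74 TPM with alcohol and 21.7 ± 3.55 TPM with the control diet (SD, n = 4 each; log2 change 0.75, limma adjusted p = 0.00595). Tradd, the adaptor that docks on the receptor, averaged 1.77 ± 0.283 TPM with alcohol and 3.73 ± 0.758 TPM with the control diet (SD, n = 4 each; log2 change -0.76, limma adjusted p = 0.00359). Ikbkg, the regulatory subunit of the IκB kinase, averaged 6.38 ± 1.04 TPM with alcohol and 10.6 ± 1.69 TPM with the control diet (SD, n = 4 each; log2 change -0.65, limma adjusted p = 0.00906); its exons overlap a gene of the other strand, so its level is uncertain. In the fit over all 14 liver libraries, Tnfrsf1a kept its call (adjusted p = 0.0288), while Casp8 (0.751), Tradd (0.868) and Ikbkg (0.758) lost theirs.

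Of 27 other chemokines, 11 were tested, with a median log2 difference of 0.17. Of the 11, 4 rose (Ccl6, Ccl19, Cxcl9 and Cxcl16) and 1 fell (Cxcl12), beside 13.3% higher and 17.9% lower over all tested genes. Ccl6, which in the genome lies near Ccl9, averaged 32.5 ± 8.55 TPM with alcohol and 15.1 ± 6.59 TPM with the control diet (SD, n = 4 each; log2 change 1.10, limma adjusted p = 0.0100). Ccl19, a ligand of Ccr7, averaged 6.24 ± 2.56 TPM with alcohol and 2.50 ± 1.04 TPM with the control diet (SD, n = 4 each; limma adjusted p = 0.0185), and its call was lost without alcohol liver 1 (0.0553) and with no filter (0.0544). For both Ccl6 and Ccl19 the alcohol and control livers overlapped. Cxcl16, the ligand of Cxcr6, averaged 3.82 ± 0.589 TPM with alcohol and 2.18 ± 0.324 TPM with the control diet (SD, n = 4 each; log2 change 0.60, limma adjusted p = 0.00681), with the same doubt over its strand. Cxcl12, the ligand of Cxcr4, fell to 96.6 ± 11.8 TPM with alcohol, against 145 ± 14.5 TPM with the control diet (SD, n = 4 each; log2 change -0.58, limma adjusted p = 0.00614). In the 14-library fit Ccl6 (0.822), Ccl19 (0.0509), Cxcl16 (1.00) and Cxcl12 (0.591) lost their calls.

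Of 23 chemokine receptors, 6 were tested and 3 rose, beside 13.3% of all tested genes, with a median log2 difference of 0.37. Of the 6, 4 reached 1 TPM in the alcohol group alone, Ackr1 among them, which set their direction. Ackr1, an atypical receptor that binds many chemokines without signalling, averaged 1.67 ± 0.484 TPM with alcohol and 0.467 ± 0.172 TPM with the control diet (SD, n = 4 each; limma adjusted p = 0.00259). Ccrl2, another atypical receptor, averaged 4.43 ± 2.04 TPM with alcohol and 1.57 ± 0.699 TPM with the control diet (SD, n = 4 each; limma adjusted p = 0.0141). The groups of Ccrl2 overlapped, at 2.40 TPM in alcohol liver 4 and 2.49 TPM in control liver 4.

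Of 23 genes around itaconate and the citrate cycle, 22 were tested, with a median log2 difference of 0.01. Of the 22, 4 had an unadjusted p under 0.05 (limma), beside 43% of all tested genes. In this list 1 rose and 0 fell, beside 13.3% higher and 17.9% lower over all tested genes. That gene was Idh2, the mitochondrial NADP-dependent isocitrate dehydrogenase, at 134 ± 23.3 TPM with alcohol and 78.1 ± 12.4 TPM with the control diet (SD, n = 4 each; log2 change 0.77, limma adjusted p = 0.00447). Of 25 macrophage activation genes, 16 were tested and 11 rose, beside 13.3% of all tested genes. Their median log2 difference was 0.70 against -0.05 over all tested genes. Il1rn, the natural antagonist of the IL1 receptor, averaged 9.86 ± 4.43 TPM with alcohol and 1.19 ± 0.251 TPM with the control diet (SD, n = 4 each; log2 change 2.21, limma adjusted p = 0.000385). Ier3, an immediate early gene, stood at 79.8, 24.9, 17.0 and 29.1 TPM with alcohol, against 3.17, 3.50, 3.73 and 4.42 TPM with the control diet (log2 change 2.80, adjusted p = 0.000489). Nfkbia, the inhibitor that holds NF-kB in the cytoplasm, averaged 28.5 ± 2.89 TPM with alcohol and 16.4 ± 1.93 TPM with the control diet (SD, n = 4 each; log2 change 0.76, limma adjusted p = 0.00162). Icam1, an adhesion molecule for leukocytes whose exons overlap a gene of the other strand, averaged 20.0 ± 5.22 TPM with alcohol and 7.65 ± 1.63 TPM with the control diet (SD, n = 4 each; log2 change 1.27, limma adjusted p = 0.00118). In the 14-library fit Il1rn kept its call (0.0304), while Idh2 (0.208), Ier3 (0.357), Icam1 (0.399) and Nfkbia (0.852) lost theirs. Il1b averaged 8.79 ± 2.02 TPM with alcohol and 5.20 ± 1.40 TPM with the control diet (SD, n = 4 each; limma adjusted p = 0.0296), but its groups overlapped and the call was lost with no filter (0.0657).

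**Figure D4:**
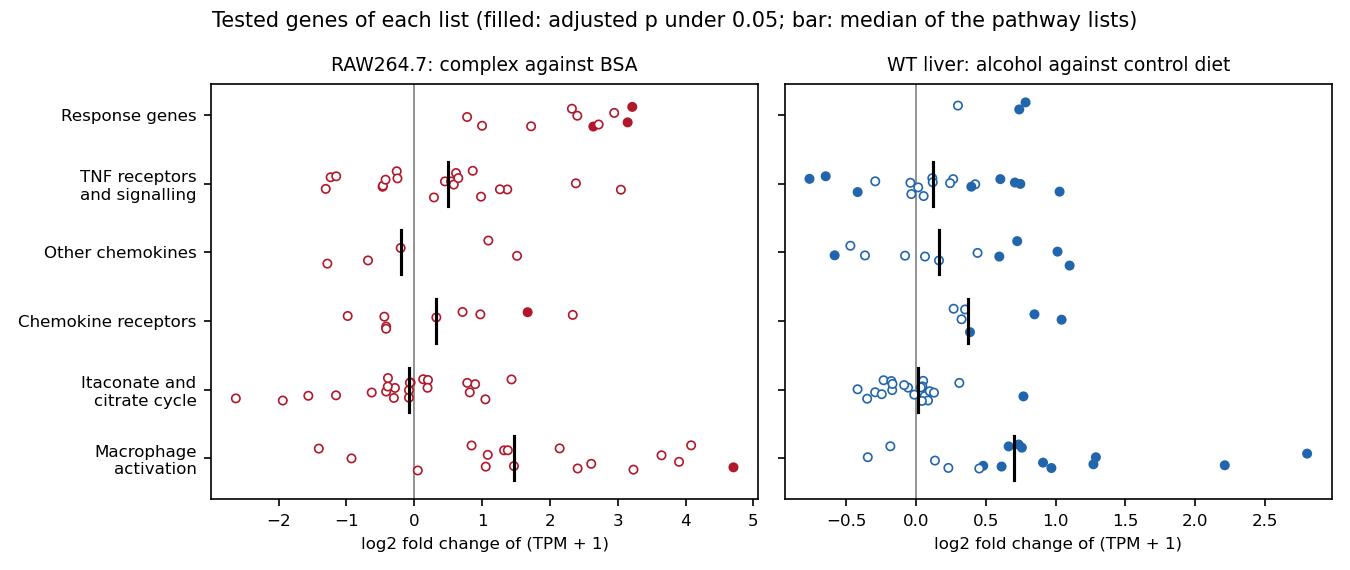
Log2 change of (TPM + 1) for every tested gene of each list, complex against BSA in RAW264.7 cells (left) and alcohol against control diet in WT liver (right), with points spread vertically for legibility and filled where the adjusted p is under 0.05. The black bar is the median of a pathway list, 1.47 and 0.70 for macrophage activation genes in the cells and the liver; of the response genes, 10 were tested in the cells and 3 in the liver.

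Markers of several cell types moved with diet in the same livers as Ccl5 and Ccl9. Over all 9747 tested genes, 13.3% were called higher and 17.9% lower, and 43% had an unadjusted p under 0.05 (limma). Of 10 monocyte and recruited macrophage markers, 7 were tested and 5 rose (Itgam, S100a4, Cd14, Fn1 and Itgax), with a summed level of 896 to 1094 TPM with alcohol and 337 to 930.4 TPM with the control diet. Of 9 neutrophil markers, 5 were tested and 4 rose (S100a8, S100a9, Ngp and Retnlg), with sums of 102 to 154 TPM with alcohol and 29.5 to 75.6 TPM with the control diet. Of 10 T and NK cell markers, 6 were tested, 2 rose (Gzma and Gzmb) and 1 fell (Cd4), with sums of 5.58 to 10.1 TPM with alcohol and 4.28 to 6.12 TPM with the control diet. All 8 Kupffer cell markers were tested and 0 passed (limma; 0 had an unadjusted p under 0.05), with sums of 146 to 334 TPM with alcohol and 194 to 218 TPM with the control diet. Of 5 endothelial markers 2 rose (Pecam1 and Lyve1; sums of 66.2 to 149 TPM with alcohol and 43.5 to 109 TPM with the control diet), and of 4 stellate cell markers tested 2 rose (Des and Pdgfrb; 8.39 to 15.4 TPM with alcohol and 4.70 to 7.59 TPM with the control diet). Of the macrophage line markers 9 were tested and 4 rose (Cd14, Itgam, Fcgr1 and Laptm5), with sums of 150 to 221 TPM with alcohol and 96.2 to 106 TPM with the control diet. The 1 B cell marker tested did not pass. Some markers reached 1 TPM in the alcohol group alone, so the filter set their direction. They were 3 of the 7 monocyte and recruited macrophage markers tested, 2 of the 5 neutrophil and 4 of the 6 T and NK cell markers. The same held for 1 stellate cell, 1 macrophage line and the 1 B cell marker, while 1 T and NK cell marker entered through the control group alone. Of 6 hepatocyte markers 1 rose (Fgb) and 1 fell (Cyp2e1). Hepatocyte markers summed to 162427 to 180406 TPM with alcohol and 132623 to 153351 TPM with the control diet, so the libraries carried the labelled tissue. None of these marker genes was at 0 in all 8 livers. Their part in the chemokine results was not tested.

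The genes whose profile over the 8 WT livers was most like that of Ccl5 were Car2, Mvp and Prkab1, with root mean square differences of 0.0851, 0.107 and 0.112 on the centred log2(TPM + 1) scale. For Ccl9 they were Mbl2, Dhrs7 and Vnn3, with differences of 0.0834, 0.107 and 0.111. These are descriptions over 8 libraries that share the diet difference.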

How the data were processed

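RNA sequencing values of 20 libraries were used as deposited by the authors, in 1 table for liver and 1 for RAW264.7 cells. The deposited values are TPM: every column sums to the total that this unit fixes, though the file headers name no unit. Per the labels' protocols, libraries came from a kit for stranded mRNA. The submitters' processing notes name the build mm10. For the aligner, counter, strand setting and annotation: not given in the sources used here; read depth is unknown.

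Levels were tested on log2(TPM + 1) with limma 3.58.1 in R 4.3.3 (empirical Bayes with a trend), over genes averaging 1 TPM or more in either group, with Benjamini-Hochberg adjustment over all tested genes and a threshold of 0.05; fold changes on this scale understate the change of low genes. Intervals are 95% intervals of the fit. Each comparison used its own 2 groups, without a replicate block: same-numbered RAW264.7 libraries did not deviate together (correlations of -0.0254 to -0.00111). With so few libraries this does not exclude a pairing. Gene positions and exon overlaps came from GENCODE M21, in which 24525 symbols were found, and promoters from RefSeq (GRCm38.p6). Tables were read with Python 3.11.15 and pandas 2.3.3, and the fit was tested on simulated data. The libraries labelled RageΔMye were left out of the comparisons. Named genes were the 10 members, the genes of their pathway lists chosen by fixed rules of significance and size, and the genes nearest in profile. Members and lists were chosen with earlier results of these data known. Alternatives were other pseudocounts, filters and scalings, a replicate block, a fit over all 14 liver libraries and leaving out each library in turn. 1 gene of the chemokine receptor list is not reported here.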

Additional observations from a re-analysis of the deposited data

Results flagged for a closer look

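In the WT livers, 52 groups of 4 libraries (26 genes, the 10 response genes and the genes named from their lists, in 2 diets) were checked for a library standing far from the other 3, and 5 stood out; by chance about 1 in 20 groups does. Control liver 1 had the highest Ccl2 of its group, 0.312 TPM. Control liver 3 was the sole control liver with Ccl3 above 0, at 0.144 TPM, and control liver 2 the sole one with Ccl7 above 0, at 0.0561 TPM. In these 2 groups the remaining livers had no spread, so the rate of 1 in 20 does not apply to them. Ccl9 was farthest from its group in alcohol liver 4, at 18.3 TPM, and Ccl6 in control liver 4, at 24.9 TPM.

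In the libraries labelled RageΔMye, which enter no comparison, 8 of the 10 response genes were listed at 0 in all 6. Ccl9 stood at 5.15, 6.52 and 14.9 TPM with alcohol, against 2.81, 0 and 2.24 TPM with the control diet, so every alcohol library was above every control library; this was not tested. Ccl3 stood at 0, 15.1 and 0 TPM with alcohol, against 0, 0 and 14.4 TPM with the control diet. Ager, which encodes RAGE, stood at 112, 93.1 and 166 TPM with alcohol and 124, 101 and 128 TPM with the control diet in these libraries, against 0.0194 to 0.478 TPM in the WT livers. Genes whose exons overlap the opposite strand, Ager among them, held 56.5% to 62.1% of the TPM in these libraries and 15.4% to 18.3% in the WT livers, so the levels are not comparable, and a level in whole liver does not check a deletion in myeloid cells.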

How the results depend on the processing

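In RAW264.7 cells, 19 genes were called, and 13, 14, 19 and 18 with a pseudocount of 0.1, no filter, a filter at 5 TPM and quantile normalization, with Tnf, Acod1 and Cxcl2 among the calls in each. Leaving out 1 library gave 2 to 9 calls and 0 to 2 of the 10 response genes. Rescaling without genes that overlap the opposite strand gave 3 calls, 2 of them response genes (an alternative chosen after seeing the data, which moved the share of higher calls from 84.2% to 100%). With a replicate block, limma called 0 genes and 0 response genes (705 unadjusted p under 0.05). The adjusted p was then 0.111, 0.197 and 0.317 for Tnf, Acod1 and Cxcl2 (limma). Same-numbered libraries did not deviate together, but so few libraries cannot exclude a pairing by number. In WT liver, 3042 genes were called, 1881 with a filter at 5 TPM, at which fewer genes are tested, and 471 in the fit over 14 libraries, whose wider spread includes the libraries labelled RageΔMye; leaving out 1 library gave 2055 to 3469. The 2 response genes called there became 4 with no filter, 1 with the filter at 5 TPM, which removed Ccl5, and 1 in the 14-library fit; they were 2 without any 1 library. For single genes, 478 values kept their side of the threshold, 50 fell below it and 3 passed it, and 0 changed direction. Values of 0 beside levels of several TPM limit what Cxcl10, Ccl5 and Ccl7 can show in RAW264.7 cells.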
